A study of Mus musculus with 12 samples.

Results

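The interaction of cisplatin and PCN is the difference between 2 differences, the cisplatin effect measured in kidneys of mice given PCN minus the cisplatin effect in kidneys of mice given vehicle. All 12 libraries of the study enter it, 3 in each of 4 groups of male wild-type C57BL/6 mice aged 8 weeks. The control group received corn oil and saline. The PCN group received pregnenolone carbonitrile at 40 mg/kg by gavage each day with saline, the cisplatin group received corn oil with a single intraperitoneal injection of cisplatin at 20 mg/kg, and the cisplatin+PCN group received both drugs. PCN or oil was given for 4 days, then cisplatin or saline, then PCN or oil for 3 more days, and kidneys were taken 4 days after cisplatin. The groups held 6 to 8 animals, against 3 sequenced libraries in each. The treatment text names the cisplatin group both among animals pretreated with PCN and among those given oil, and the groups are taken here from the library titles. The labels do not state whether each library was a separate animal; the p-values therefore reflect only library-to-library spread, some of which may be technical. Of 52636 genes in the table, 13540 reached an FPKM (fragments normalised for gene length and library size) of at least 1 in at least 3 of the 12 libraries, and these were tested. The study asked whether activating PXR protects the kidney from cisplatin.

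Cisplatin is a platinum drug that enters cells of the proximal tubule through organic cation transport, binds DNA and injures the tubular epithelium. Injured tubules switch off genes for solute transport and switch on p53 targets, injury markers such as KIM-1, and inflammatory genes. PCN is a steroid ligand of PXR, the pregnane X receptor (gene Nr1i2) of rodents, known in liver and gut for inducing enzymes and transporters of drug clearance. On a log scale, 2 treatments that act independently add up, and the interaction is then 0. An interaction above 0 means that the level with both drugs was above the sum of the separate effects, which for a gene that fell with cisplatin is a smaller fall. An interaction below 0 means the opposite, which for a gene that rose is a smaller rise.

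The libraries held between 18914607 and 26530485 reads assigned to genes, and an FPKM of 1 stood for 18.7 to 27.2 reads per kilobase. A principal component analysis gave a first component with 80.2% of the variance, which placed the cisplatin libraries at 51.2 to 62.6, the cisplatin+PCN libraries at 21.9, 40.7 and 29.3, and the other 6 between -44.9 and -42.1. Replicates spread more after cisplatin: the median within-group SD of log2(FPKM + 1) was 0.0861 in control, 0.0755 with PCN, 0.140 with cisplatin and 0.129 with both. Genes that define the nephron were present in all groups, among them Slc34a1, Lrp2, Umod, Slc12a3 and Aqp2. In whole kidney, fewer cells of a type and less RNA per cell cannot be told apart. Adipocyte genes had their highest summed levels in PCN replicate 1 (217 FPKM), control replicate 1 (139) and cisplatin replicate 3 (121), against 16.7 to 82.7 in the others.

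The cisplatin changes of 15 genes differed between kidneys with and without PCN, and each was smaller with PCN. The genes of the lipid droplet protein Plin2, the fibrinogen chain Fgb, the junction protein Cldn3, the translation repressor Eif4ebp1 and the peptidase inhibitor Pi15 rose less. The fall was smaller for the tubular transporters and channels Slc13a2, Rhcg, Slc4a1 and Kcnj10, the enzymes Nat8f1, Nat8f6, Acot11 and Amt, and for Tmem52b and Arhgef19. Of these 15 genes, 10 had an interaction above 0 (0.0739% of genes tested) and 5 below 0 (0.0369%) in limma's test at a Benjamini-Hochberg adjusted p under 0.05, together 0.111% of all genes tested. At an unadjusted p under 0.05 there were 1365 genes above 0 (10.1%) and 1252 below 0 (9.25%), and the median interaction over all genes was 0.00 on the log2(FPKM + 1) scale. The typical gene had a standard error of 0.15 and an unadjusted 95% interval of ± 0.33, and the smallest interaction that passed after adjustment was 0.73, that of Kcnj10. The count of 15 varied with single libraries. It was 1066 without cisplatin replicate 2 and 493 without cisplatin+PCN replicate 2, each time with all 15 genes included. It was 9 without cisplatin+PCN replicate 3. Without cisplatin replicate 1 it was 15, of which 13 were among the original genes. Without cisplatin+PCN replicate 1 it was 17, of which 12 were. Between 10 and 11 genes passed when any 1 control or PCN library was left out, and 12 passed without cisplatin replicate 3. The count was 0 without control replicate 1 and PCN replicate 1 together, the libraries with the highest adipocyte genes (smallest adjusted p 0.117, limma). No other pair of libraries was left out for comparison, and the part of adipocyte content in this loss was not tested.

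Across all 13540 genes, the cisplatin effect with PCN had a slope of 0.74 on the cisplatin effect without PCN, where 1 would mean equal effects. The 2 effects share no library. Taken one library at a time, the cisplatin+PCN libraries gave slopes of 0.66, 0.84 and 0.73 (SD 0.10), so each was under 1 and they differed among themselves. Without PCN, cisplatin changed 8649 genes (63.9% of those tested), and with PCN 6352 (46.9%). The lists shared 5784 genes, 66.9% of the first and 91.1% of the second, of which 5775 moved in the same direction. PCN without cisplatin changed no gene in limma's test at an adjusted p under 0.05 (0%; 438, or 3.23%, at an unadjusted p under 0.05), and limma-voom on recovered reads gave 0 as well. PCN in mice given cisplatin changed 2110 genes (15.6%), a count that fell to 1 when only those 6 libraries entered the fit.

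**Figure D1:**
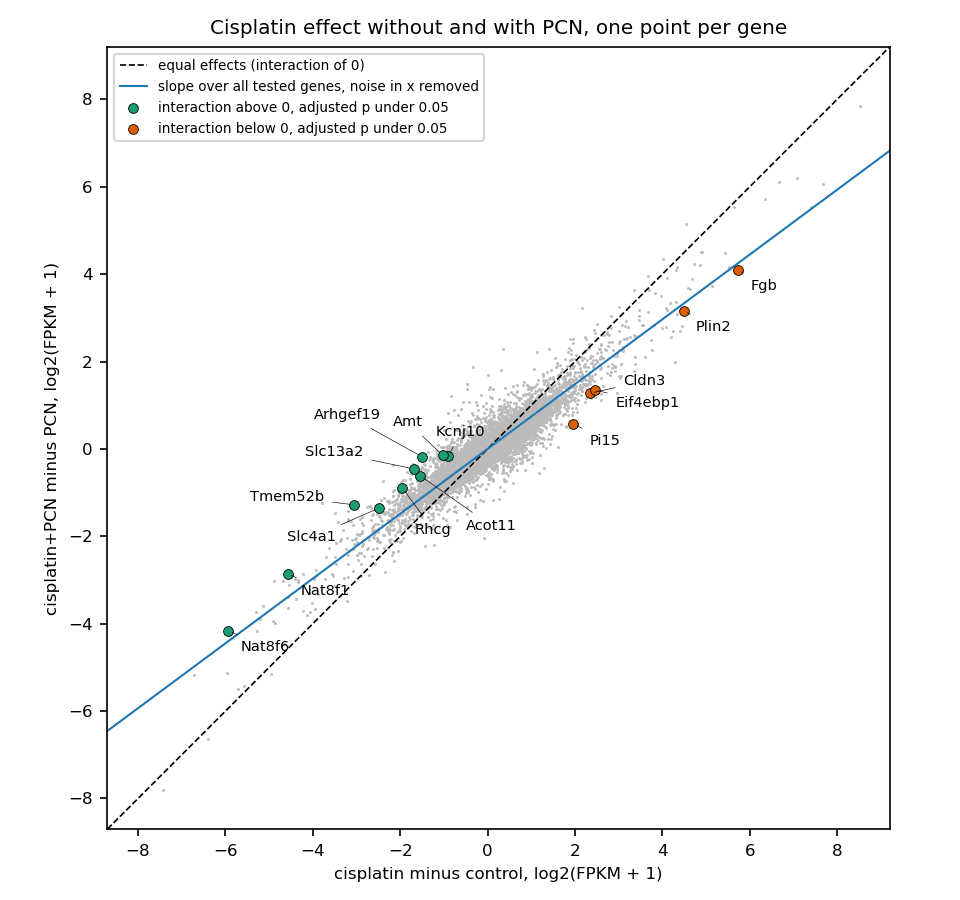
Each point is a tested gene, with the cisplatin effect without PCN (cisplatin minus control) on the x axis and with PCN (cisplatin+PCN minus PCN) on the y axis, both on the log2(FPKM + 1) scale. The dashed line marks equal effects and the blue line the slope of 0.74. The 10 genes with an interaction above 0 (green) lie to the left of 0 and above the dashed line, and the 5 below 0 (orange) lie to the right and below it.

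Without cisplatin, PCN changed none of the 5 genes that rose less past the test, although every PCN library lay above every control library for Cldn3 and Pi15. Plin2 (chr4:86648386-86670060), which encodes perilipin 2, a coat protein of lipid droplets, stood at 25.6, 27.6 and 23.0 FPKM in control, 29.0, 26.6 and 28.3 with PCN, 713, 502 and 573 with cisplatin and 258, 256 and 262 with both. No cisplatin+PCN library reached the lowest cisplatin library, and the 3 were close to each other. The cisplatin rise of Plin2 was 4.49 without and 3.17 with PCN (log2), an interaction of -1.32 ± 0.16 (SE; adjusted p = 0.00909, limma). Fgb (chr3:83040141-83049863), the fibrinogen beta chain gene, stood between 0.126 and 0.304 FPKM in the 6 libraries without cisplatin. It was at 62.6, 52.7 and 75.6 FPKM with cisplatin and 19.0, 24.4 and 19.2 with both, groups that do not overlap. Its interaction was -1.63 ± 0.18, and 71.5% of its cisplatin rise on the log2 scale was kept with PCN. Fgb is also a liver gene. The other members of the liver list summed to 75.1 to 107 FPKM with cisplatin and 80.8 to 96.0 with both, ranges that overlap.

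Cldn3 (chr5:134986214-134987472) encodes claudin 3, a tight junction protein. It stood at 8.45, 9.40 and 10.1 FPKM in control, 11.7, 10.8 and 11.4 with PCN, 56.3, 44.5 and 53.9 with cisplatin and 29.5, 29.4 and 27.3 with both. Every cisplatin library exceeded every library given both drugs, and the interaction was -1.07 ± 0.13 (adjusted p = 0.00909, limma). Eif4ebp1 (chr8:27260329-27276674), whose product 4E-BP1 binds the cap-binding factor eIF4E and restrains translation, stood at 49.0, 41.2 and 48.8 FPKM with cisplatin and 20.0, 24.1 and 21.9 with both, against 7.28 to 8.91 in the other libraries. Pi15 (chr1:17601901-17630939), a peptidase inhibitor gene, was low throughout. It stood between 0.253 and 0.397 FPKM without cisplatin, at 3.79, 3.59 and 4.50 with cisplatin and at 0.828, 1.23 and 0.982 with both, which corresponds to 144 to 216 recovered reads per library in the last group. Pi15 met the expression minimum only through the cisplatin group, where it was highest. Of these 5 genes Pi15 kept the least of its rise, 29.4% on the log2 scale, and its interaction was -1.39 ± 0.14. With a pseudocount of 0.1 the interaction of Pi15 was -2.15 and with limma-voom on recovered reads -2.34.

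Genes with an interaction above 0 fell with cisplatin alone. Nat8f1 (chr6:85910154-85915687) and Nat8f6 (chr6:85808024-85820954) belong to the Nat8 family of acetyltransferases, whose members include the enzyme of the last step of mercapturic acid synthesis. Nat8f1 stood at 335, 349 and 358 FPKM in control, 342, 325 and 333 with PCN, 12.2, 16.4 and 12.6 with cisplatin and 52.8, 34.7 and 50.2 with both. All 3 libraries given both drugs lay above all 3 given cisplatin alone, and far below control. Nat8f6 stood between 87.7 and 97.9 FPKM without cisplatin, at 0.795, 0.535 and 0.173 with cisplatin and at 5.25, 3.4 and 4.75 with both. Their interactions were 1.72 ± 0.21 and 1.78 ± 0.21 (adjusted p = 0.00909 for each, limma). The size for Nat8f6 rests on the scale, and was 2.97 with a pseudocount of 0.1 and 3.35 with limma-voom on recovered reads. The genes are close paralogs, and reads that both share could have been assigned to either. On the linear scale the interaction of Nat8f6 was -2.0 FPKM, so its sign depends on the log scale, whereas the other 14 genes kept theirs.

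Transporters and channels of the tubule made up much of this group. Slc13a2 (chr11:78397087-78422217), the citrate and dicarboxylate transporter of the proximal tubule, stood at 17.3, 18.9 and 15.6 FPKM in control, 18.8, 21.2 and 20.8 with PCN, 4.09, 5.53 and 4.44 with cisplatin and 15.7, 13.2 and 14.6 with both. It kept 27.0% of its cisplatin fall on the log2 scale. Rhcg (chr7:79593363-79617657), an ammonia transporter of distal segments, stood between 43.4 and 49.8 FPKM without cisplatin, at 9.01, 13.4 and 11.3 with cisplatin and at 23.4, 23.8 and 26.9 with both (interaction 1.07 ± 0.17, adjusted p = 0.0457, limma). Kcnj10 (chr1:172341210-172374085), a basolateral potassium channel of the distal convoluted tubule, stood at 5.88, 6.43 and 5.89 FPKM with cisplatin and 10.5, 10.4 and 10.2 with both, against 10.8 to 12.7 elsewhere. Its cisplatin effect was -0.90 without PCN and -0.17 with it, and the latter did not pass (adjusted p = 0.053, limma). Slc4a1 (chr11:102348824-102366203), the anion exchanger of acid-secreting intercalated cells and of red cells, stood at 10.6, 12 and 10.6 FPKM in control, 9.0, 10.4 and 10.3 with PCN, 1.01, 1.43 and 1.04 with cisplatin and 2.67, 3.26 and 3.92 with both. Its interaction was 1.13 ± 0.16. Slc4a1 is also a red cell gene: the other members of the erythroid list summed to 319 to 1189 FPKM without cisplatin, 0.775 to 7.12 with cisplatin and 0.36 to 0.833 with both. The other 6 tested erythroid genes had interactions between -0.37 and 0.20, none past the test.

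Acot11 (chr4:106744555-106804998), an acyl-CoA thioesterase gene, stood at 7.02, 7.96 and 7.68 FPKM in control, 6.77, 6.64 and 6.87 with PCN, 1.76, 2.19 and 1.88 with cisplatin and 4.46, 3.77 and 4.00 with both. Amt (chr9:108296853-108302302) encodes the aminomethyltransferase of the glycine cleavage system and stood at 10.6, 12.7 and 11.6 FPKM with cisplatin and 23.1, 20.2 and 23.8 with both, against 22.8 to 26.3 in the other libraries. With both drugs the Amt range thus overlapped that without cisplatin. Tmem52b (chr6:129512555-129519227), a transmembrane protein gene, stood between 81.2 and 92.9 FPKM without cisplatin, at 6.44, 11.9 and 10.9 with cisplatin and at 42.5, 30.4 and 34.4 with both. Its interaction was 1.77 ± 0.26 (adjusted p = 0.0311, limma). Arhgef19 (chr4:141239499-141257564) had the PCN effect without cisplatin that was farthest from 0 among the 15 genes. It stood at 6.69, 5.70 and 6.70 FPKM in control, 3.49, 4.61 and 4.60 with PCN, 1.38, 2.27 and 1.24 with cisplatin and 3.44, 3.55 and 3.85 with both. Its PCN effect was -0.50 without cisplatin, which did not pass, and 0.83 with it. Over the 15 genes, the part of the cisplatin change on the log2 scale that was kept with PCN ranged from 11.7% to 71.5%, with a median of 45.3%.

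**Figure D2:**
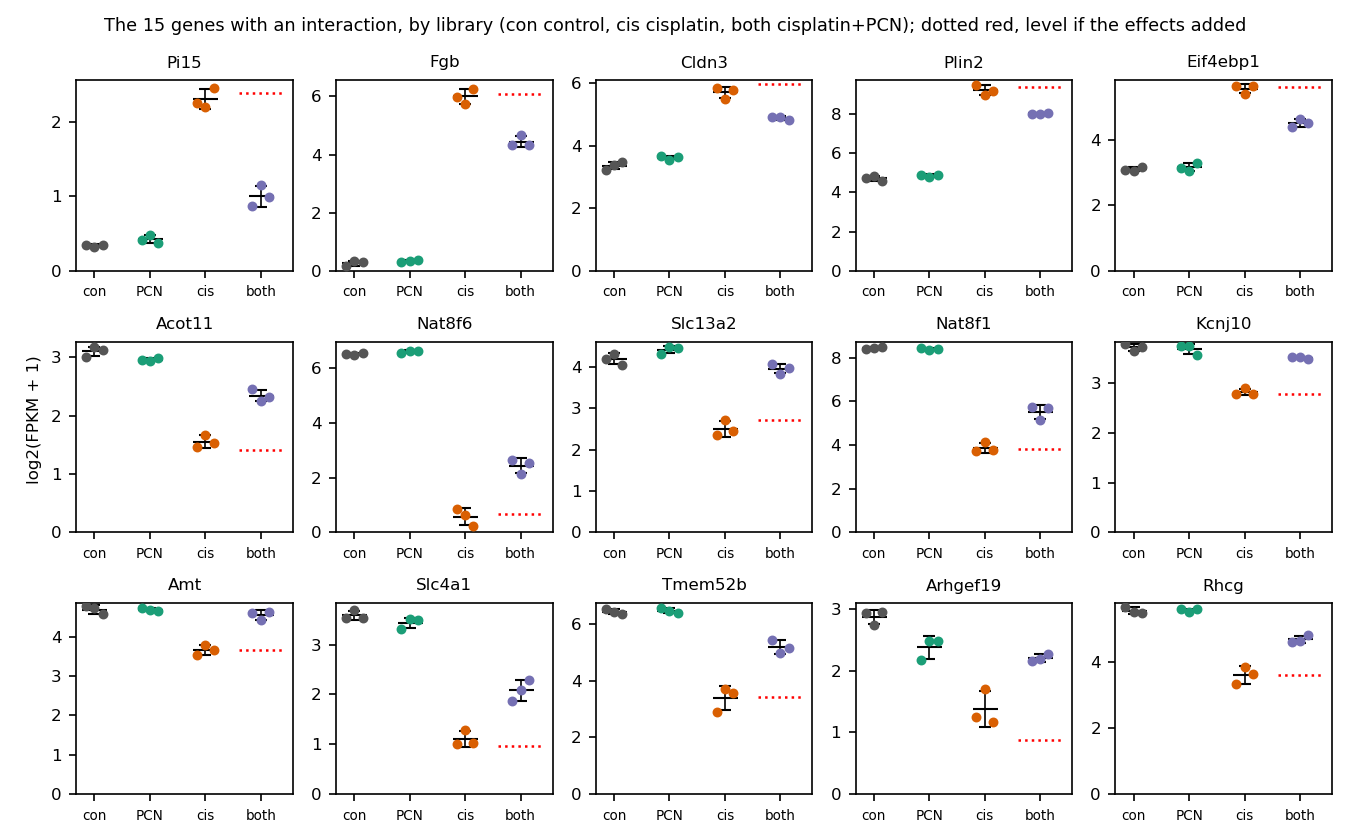
Each panel shows 1 of the 15 genes, with log2(FPKM + 1) on the y axis and a point for each library in the 4 groups; bars are group means ± SD (n = 3). The dotted red line is the level that the cisplatin+PCN libraries would have if the separate effects added. The cisplatin+PCN points lie below it in the top row, the 5 genes with an interaction below 0, and above it in the other rows.

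Some genes of the lists below stood just outside the threshold, among others that included noncoding RNA genes. Whether genes outside it resembled those inside was not tested. The last gene to pass was Rhcg (adjusted p = 0.0457) and the first not to pass was Ypel2, named here for that position alone (-0.97 ± 0.16, adjusted p = 0.0681, limma). At an adjusted p of 0.071 stood Slc5a12, the lactate transporter of the proximal tubule (2.04 ± 0.35), Kl, which encodes klotho, the co-receptor of FGF23 (1.37 ± 0.24), Lox, the collagen cross-linking enzyme lysyl oxidase (-1.56 ± 0.27), and Perp, a p53 target and junction protein gene (-0.82 ± 0.15). Under an adjusted p of 0.1 there were 59 genes, 33 above and 26 below 0.

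Along the nephron, transport genes shared an interaction above 0, although few passed singly. With the slope of 0.74 over all genes, lists that moved with cisplatin tend to an interaction of the opposite sign. This held for the medians of the lists below except those of fatty acid oxidation and PPAR alpha, and of platinum handling. Their median cisplatin effects without PCN were 0.71 and 0.48, and their median interactions 0.04 and 0.06. The lists are set beside all tested genes, not beside genes with an equal cisplatin effect, so a change particular to a list was not tested. Of 38 proximal tubule transport genes tested, 36 lay above 0, 25 of these at an unadjusted p under 0.05 (against 10.1% of all genes), and none passed after adjustment. Their median interaction was 0.78, where cisplatin changed the list by a median of -1.75 without PCN and -1.01 with it. Slc34a1, the main phosphate transporter, stood between 1066 and 1156 FPKM without cisplatin, at 45.3, 32.9 and 35.2 with cisplatin and at 239, 62.1 and 166 with both. The groups did not overlap, but cisplatin+PCN replicate 2 lay near the cisplatin libraries (1.87 ± 0.51, adjusted p = 0.121, limma). Slc5a12 stood between 79.8 and 98.7 FPKM without cisplatin, at 6.42, 9.68 and 5.03 with cisplatin and at 46.3, 22.4 and 32.1 with both. Slc22a2, the organic cation transporter OCT2 through which cisplatin is known to enter, stood at 43.7, 36.9 and 36.7 FPKM with cisplatin and 83.2, 51.3 and 68.4 with both, against 129 to 144 in the other libraries (0.78 ± 0.20, adjusted p = 0.119). Lrp2, which encodes the endocytic receptor megalin, stood at 14.4, 17.3 and 11.6 FPKM with cisplatin and 37.0, 23.3 and 31.8 with both, against 118 to 133 elsewhere (0.98 ± 0.23).

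Proximal tubule enzymes followed with a median of 0.51, 29 of 34 above 0 and 12 of these at an unadjusted p under 0.05. Hao2, a peroxisomal hydroxyacid oxidase, had the largest interaction of the list at 1.76 ± 0.54, and Miox, the kidney enzyme of inositol breakdown, had 1.55 ± 0.68. Miox shows the spread among libraries given both drugs: 142, 28.0 and 108 FPKM, against 46.6, 20.3 and 24.6 with cisplatin alone, so that the groups overlapped.

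The later segments showed a similar pattern. All 14 thick ascending limb genes tested lay above 0, with a median of 0.57 and 10 at an unadjusted p under 0.05. Egf, which the thick limb and distal tubule secrete, stood at 4.95, 6.21 and 8.35 FPKM with cisplatin and 33.2, 10.6 and 17.8 with both, against 136 to 170 elsewhere (1.42 ± 0.43). Umod, the gene of uromodulin, had a smaller interaction and stood between 1109 and 1387 FPKM without cisplatin, at 683, 1053 and 1075 with cisplatin and at 1501, 1214 and 1152 with both (0.42 ± 0.24, adjusted p = 0.365). Kcnj1, the apical potassium channel ROMK, stood at 23.8, 37.3 and 18.4 FPKM with cisplatin and 45.7, 44.2 and 48.4 with both. Of 14 distal convoluted and connecting tubule genes 13 lay above 0 (median 0.68, 9 at an unadjusted p under 0.05). Slc12a3, the thiazide-sensitive sodium chloride cotransporter, stood at 9.96, 6.95 and 9.98 FPKM with cisplatin and 22.8, 17.7 and 22.1 with both, against 60.2 to 87.1 elsewhere (1.17 ± 0.25, adjusted p = 0.102). Emx1, a transcription factor gene in this list, had 1.08 ± 0.23.

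Of 14 collecting duct genes, 11 lay above 0 with a median of 0.47, and Slc4a1 passed. At an unadjusted p under 0.05 there were 7 above and 2 below 0, so this list was less uniform. Hsd11b2, which protects the mineralocorticoid receptor from cortisol and corticosterone, stood at 25, 35.5 and 23.1 FPKM with cisplatin and 58.5, 57.9 and 61.4 with both, against 67.5 to 85.6 elsewhere. Its interaction was 1.07 ± 0.20 (adjusted p = 0.0711). Scnn1g, a subunit of the epithelial sodium channel, stood at 6.69, 8.34 and 8.42 FPKM with cisplatin and 16, 13.7 and 13.8 with both, a range that overlaps the 12.6 to 16.6 of the 6 other libraries (0.80 ± 0.15, adjusted p = 0.0866). Aqp2, the vasopressin-regulated water channel, showed no fall past the test with cisplatin and stood at 275, 342 and 369 FPKM in control, 219, 254 and 223 with PCN, 380, 288 and 259 with cisplatin and 542, 454 and 389 with both. Cisplatin with PCN raised Aqp2 by 0.98 (adjusted p = 0.00067, limma), while the effect without PCN was -0.10. The interaction of Aqp2 was 1.08 ± 0.23 (adjusted p = 0.102). The proton pump subunit genes Atp6v1g3 and Atp6v0d2, the lowest of the list, had interactions of -0.34 and -0.33.

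**Figure D3:**
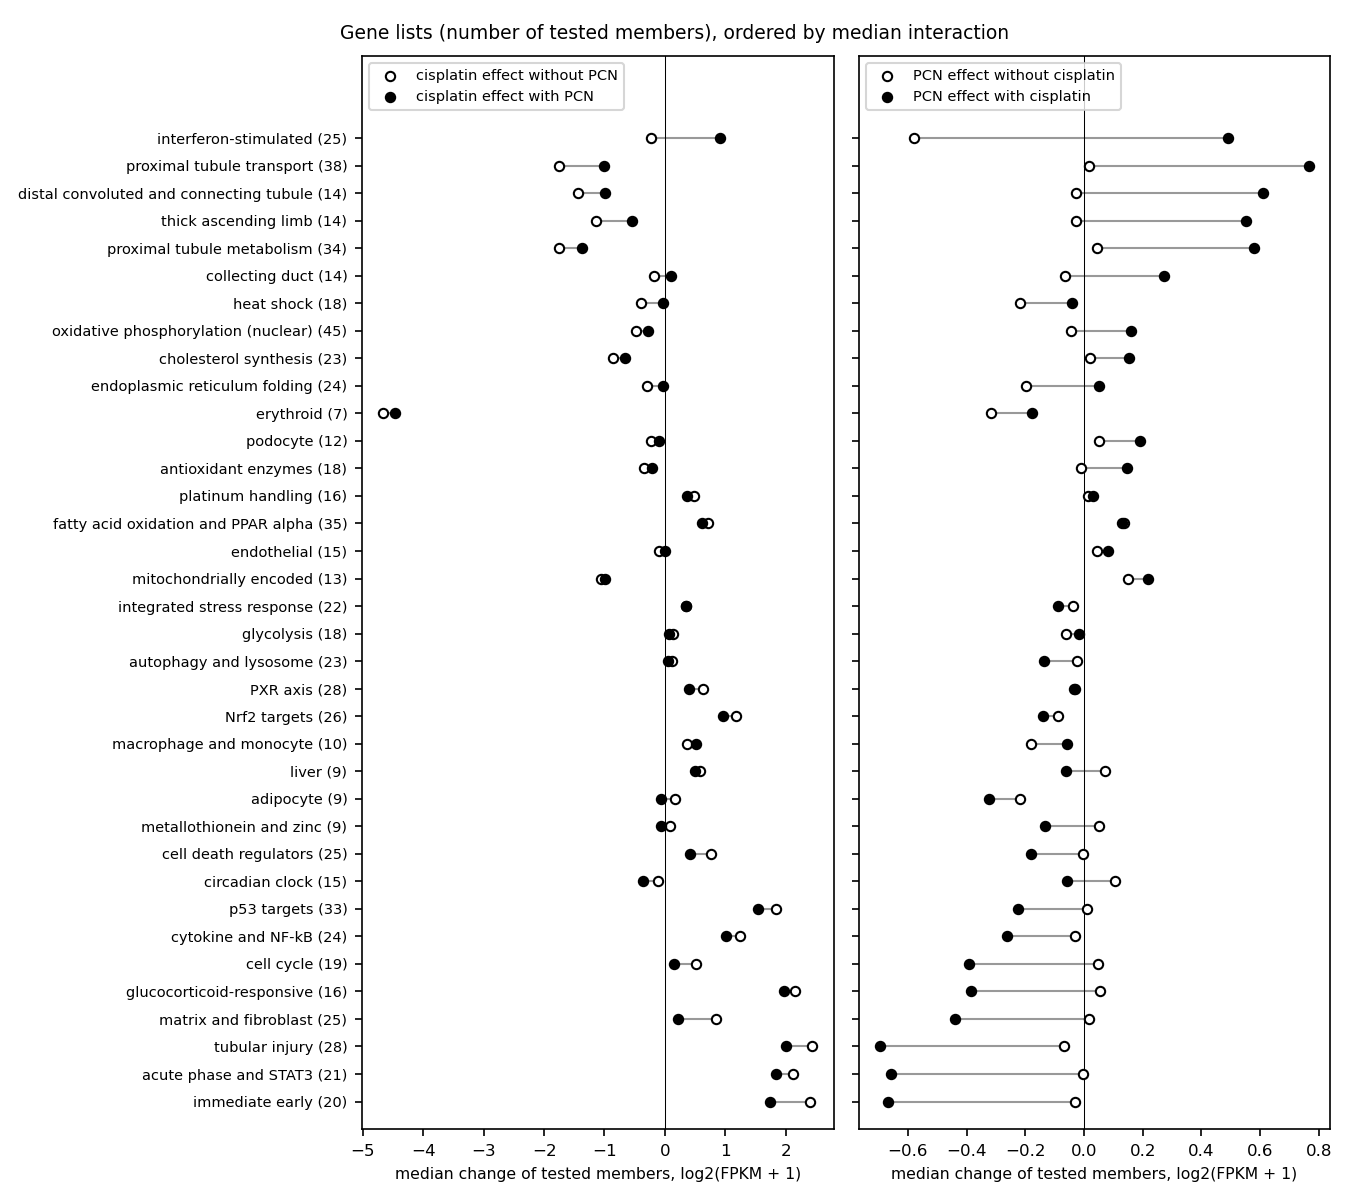
Gene lists with at least 5 tested members, ordered by median interaction. The left panel gives the median cisplatin effect without (open) and with PCN (filled), the right panel the median PCN effect without (open) and with cisplatin (filled), all on the log2(FPKM + 1) scale; the distance from open to filled is near the median interaction. Tubular lists near the top fell less with PCN, except the collecting duct list, whose median cisplatin effect was -0.17 without and 0.10 with PCN. Injury lists at the bottom rose less, and interferon-stimulated genes are the one list shown whose median PCN effect was under -0.5 without cisplatin.

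Injury genes were the counterpart. Of 28 tubular injury genes tested 26 lay below 0, 12 of them at an unadjusted p under 0.05 (against 9.25% of all genes), with a median of -0.56, and Fgb passed. The list rose with cisplatin by a median of 2.44 without PCN and 2.01 with it. Krt20, a keratin gene of stressed epithelium, stood at 234, 216 and 281 FPKM with cisplatin and 18.8, 143 and 90.2 with both. Havcr1, the gene of KIM-1, stood at 232, 493 and 297 FPKM with cisplatin and 22.8, 321 and 262 with both, so that replicate 1 of the latter lay apart and the other 2 overlapped the cisplatin range (-1.61 ± 1.08, adjusted p = 0.431). Lcn2, the gene of NGAL, stood at 653, 673 and 826 FPKM with cisplatin and 384, 696 and 384 with both, also overlapping (-0.66 ± 0.29, adjusted p = 0.249). Sprr2f, an epithelial stress gene, had 1 read in the 6 libraries without cisplatin, 258 to 340 reads per library with cisplatin and 28, 169 and 108 with both. The mean log2 level of the injury list was 5.64 to 5.77 with cisplatin and 4.44, 5.37 and 5.08 with both. Without cisplatin+PCN replicate 1, in which it was lowest, the median interaction was -0.35.

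Acute-phase, immediate early and matrix genes lay on the same side of 0. Of 21 acute-phase and STAT3 genes 20 lay below 0 (median -0.63, 9 at an unadjusted p under 0.05). Fgg, the fibrinogen gamma chain gene, stood at 543, 344 and 643 FPKM with cisplatin and 295, 275 and 227 with both, against 2.17 to 3.16 elsewhere (-0.89 ± 0.29). Socs3, the feedback inhibitor of STAT3 signalling, stood at 30.6, 32.9 and 45.2 FPKM with cisplatin and 17.7, 27.3 and 16.2 with both (-0.86 ± 0.25), and Lrg1, an acute-phase glycoprotein gene, had -0.95 ± 0.29. C3, the central complement gene, had an interaction near 0 and stood at 249, 243 and 249 FPKM with cisplatin and 167, 245 and 281 with both (-0.10, 95% interval from -0.77 to 0.57). Of 20 immediate early genes 19 lay below 0 (median -0.67, 12 at an unadjusted p under 0.05). Klf6, a zinc finger factor gene, stood at 84.2, 56.4 and 103 FPKM with cisplatin and 31.9, 43.5 and 36.8 with both, against 8.33 to 10.3 elsewhere. Dusp5, a phosphatase of ERK, had -1.13 ± 0.34.

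Of 25 matrix and fibroblast genes 23 lay below 0 (median -0.47, 12 at an unadjusted p under 0.05). Lox stood at 17.2, 14 and 24.1 FPKM with cisplatin and 6.95, 5.99 and 3.92 with both, against 0.772 to 1.01 elsewhere. Timp1, a metalloproteinase inhibitor gene, stood at 14.2, 30.0 and 21.8 FPKM with cisplatin and 2.96, 14.7 and 9.25 with both. Cisplatin+PCN replicate 2 overlapped the cisplatin range. Neutrophil and macrophage genes were lower as well in some libraries, whereas lymphocyte genes were not. The summed lymphocyte list was low, at 3.65 to 4.34 FPKM with cisplatin and 4.82, 5.23 and 6.41 with both. The 4 tested neutrophil genes had a median interaction of -0.53, and the summed level of the neutrophil list (13 genes, with Mpo at 0 in every library) was 25.8 to 43.6 FPKM with cisplatin and 12.1, 32.3 and 5.97 with both. The summed macrophage and monocyte list was 169 to 202 FPKM with cisplatin and 99.7, 157 and 149 with both. The part of these cells in the acute-phase and matrix values was not tested.

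The p53 and cell cycle lists also lay below 0. Of 33 p53 targets 27 lay below 0, with a median of -0.20 and 6 at an unadjusted p under 0.05, while cisplatin raised the list by a median of 1.84 without PCN and 1.54 with it. Cdkn1a, the gene of the cell cycle inhibitor p21, stood at 297, 306 and 343 FPKM with cisplatin and 177, 283 and 241 with both, against 2.0 to 2.67 elsewhere, and kept 91.6% of its rise (-0.56 ± 0.20, adjusted p = 0.182). Perp stood at 113, 100 and 115 FPKM with cisplatin and 59.1, 76.3 and 69.4 with both, against 31.0 to 40.5 elsewhere, and kept 50.1%. Btg2, an antiproliferative gene, had -0.97 ± 0.32, and Gdf15, a stress cytokine gene, had -0.38 ± 0.33. Of 19 tested cell cycle genes 18 lay below 0 (median -0.42, 10 at an unadjusted p under 0.05). Rrm2, a subunit of ribonucleotide reductase, stood at 5.66, 8.45 and 9.81 FPKM with cisplatin and 2.0, 5.15 and 3.51 with both, against 1.21 to 1.62 elsewhere. Tyms, which makes thymidylate and was singled out after its value was seen as the one member above 0, had 0.32 ± 0.13. Of 25 cell death regulators 18 lay below 0 (median -0.18). Ripk3, the kinase of necroptosis, had -0.77 ± 0.24, and Bcl2l1, the gene of the survival factor BCL-XL, had -0.48 ± 0.15, so that genes of opposite roles both lay below 0.

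Interferon-stimulated genes formed the list with the largest median interaction, 1.10, and followed another course than tubular genes. All 25 tested lay above 0, 20 of them at an unadjusted p under 0.05, and none passed after adjustment. The cisplatin effect on the list had a median of -0.23 without PCN and 0.91 with it. The median PCN effect was -0.58 without cisplatin and 0.49 with it. These genes are switched on when factors activated by interferon signalling bind the interferon-stimulated response element in their promoters. The core of that element was searched as GAAA, any 2 bases and GAAA on both strands of RefSeq promoters (250 bases before to 50 after the start, build GRCm38.p6). Of 18 list members matched to a RefSeq promoter, 12 hold it (66.7%), against 3.44% of all 32851 promoters. Counted by gene, as for the list, the share was 3.70% of tested genes with a promoter. A match is a description of letters and shows no binding. Promoters of 2 members among the largest interactions are shown, as the 150 bases before the RefSeq start, with matches in capitals. Isg15, a ubiquitin-like modifier gene, is read from the minus strand at chr4:156200819-156200968 and Ifit1, a sensor of viral RNA, from the plus strand at chr19:34640739-34640888.
Isg15: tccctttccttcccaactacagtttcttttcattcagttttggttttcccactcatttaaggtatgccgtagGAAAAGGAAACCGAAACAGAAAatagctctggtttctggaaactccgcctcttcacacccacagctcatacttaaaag
Ifit1: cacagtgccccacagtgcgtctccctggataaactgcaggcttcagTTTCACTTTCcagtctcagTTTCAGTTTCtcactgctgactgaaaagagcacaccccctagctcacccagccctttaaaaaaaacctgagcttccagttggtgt

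The interferon values differed by library within groups. Isg15 stood at 8.13, 31.0 and 28.5 FPKM in control, 8.21, 7.14 and 5.94 with PCN, 13.6, 18.6 and 13.8 with cisplatin and 21.4, 20.3 and 52.0 with both. Control replicates 2 and 3 and cisplatin+PCN replicate 3 were high, and control replicate 1 lay with the PCN libraries. Ifit1 and Ifit3 were high in the same libraries. Irf7, the master factor of the interferon response, stood at 4.46, 28.5 and 11.6 FPKM in control and 26.9, 27.8 and 50.1 with both. Isg15 had an interaction of 2.21 ± 0.64 (adjusted p = 0.129), Ifit3 2.06 ± 0.53, Ifit1 1.95 ± 0.61 and Irf7 1.92 ± 0.66 (limma). The mean log2 level of the list was 2.19, 3.37 and 2.95 in control, 2.15 to 2.29 with PCN, 2.50 to 2.72 with cisplatin and 2.88, 2.88 and 3.68 with both. The median interaction was 0.79 without control replicate 2, 0.80 without cisplatin+PCN replicate 3 and 1.47 without control replicate 1. Cxcl10, an interferon-induced chemokine gene in the cytokine list, was less scattered: 2.07, 2.82 and 2.24 FPKM in control, 1.09, 1.18 and 1.46 with PCN, 4.59, 3.77 and 4.84 with cisplatin and 4.65, 5.37 and 5.42 with both. Cisplatin raised Cxcl10 by 0.68 without PCN and by 1.46 with it, an interaction of 0.78 ± 0.15 (adjusted p = 0.0931). Cxcl10 had the highest interaction of the 24 tested cytokine and NF-kB genes, of which 18 lay below 0.

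Chaperone genes had lower mean levels in PCN kidneys than in control ones, none past the test, and median cisplatin effects nearer to 0 with PCN. Of 24 tested genes of endoplasmic reticulum folding 19 lay above 0, 10 of them at an unadjusted p under 0.05 (median 0.17). Their median cisplatin effect was -0.30 without PCN and -0.03 with it, and the median PCN effect was -0.20 without cisplatin and 0.05 with it. Hspa5, which encodes BiP, the main chaperone of the compartment, stood at 138, 149 and 152 FPKM in control, 116, 112 and 104 with PCN, 98.6, 101 and 91.1 with cisplatin and 106, 115 and 103 with both. Every control library lay above every other library, while PCN and cisplatin+PCN overlapped. Cisplatin changed Hspa5 by -0.59 (adjusted p = 4.8e-05) without PCN and by -0.03 with it (0.56 ± 0.11, adjusted p = 0.079, limma). Calr, the gene of calreticulin, had 0.60 ± 0.18, Hyou1, a chaperone of the Hsp70 family, 0.70 ± 0.22, and Sdf2l1, a partner of BiP, 0.98 ± 0.32. Creld2, a disulfide isomerase gene chosen after its values were seen, stood at 32.2, 30.7 and 29.8 FPKM in control, 21.7, 23.0 and 20.6 with PCN, 19.7, 23.3 and 18.1 with cisplatin and 18.1, 22.8 and 22.2 with both. The endoplasmic reticulum stress element, searched as CCAAT, any 9 bases and CCACG on both strands, occurs in 8 of 21 folding genes with a promoter in the table (38.1%) and in 0.119% of all promoters. Counted by gene, the share was 0.157% of tested genes with a promoter. The match of Creld2 is on the opposite strand, shown in capitals in the 150 bases before its RefSeq start (GRCm38.p6, chr15:88819496-88819645, plus strand).
Creld2: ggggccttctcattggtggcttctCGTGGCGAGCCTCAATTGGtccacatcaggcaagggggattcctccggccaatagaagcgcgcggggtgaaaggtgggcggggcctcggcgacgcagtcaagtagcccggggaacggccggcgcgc

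Heat shock genes, among them those of the mitochondrial chaperonins Hspd1 and Hspe1, had a median interaction of 0.20, 12 of 18 above 0, and median cisplatin effects of -0.39 without PCN and -0.03 with it. Hspa1b, an inducible Hsp70 gene, stood at 36.5, 21.6 and 21.2 FPKM in control, 13.7, 13.0 and 12.7 with PCN, 15.6, 15.7 and 14.5 with cisplatin and 13.8, 16.6 and 15.6 with both (0.92 ± 0.23, adjusted p = 0.117). Its neighbour Hspa1a had 0.84 ± 0.25; the pair is nearly identical in sequence, and reads could have been assigned to either. For Hspa1b the control libraries were the high ones and the other 3 groups lay between 12.7 and 16.6 FPKM. For both genes control replicate 1 was the highest library, and it is also one of those with raised adipocyte genes. The element of heat shock factor 1, searched as GAA, any 2 bases, TTC, any 2 bases and GAA on both strands, occurs in 4 of 13 members with a promoter in the table (30.8%) and in 0.603% of all promoters. Counted by gene, the share was 0.566% of tested genes with a promoter.

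**Figure D4:**
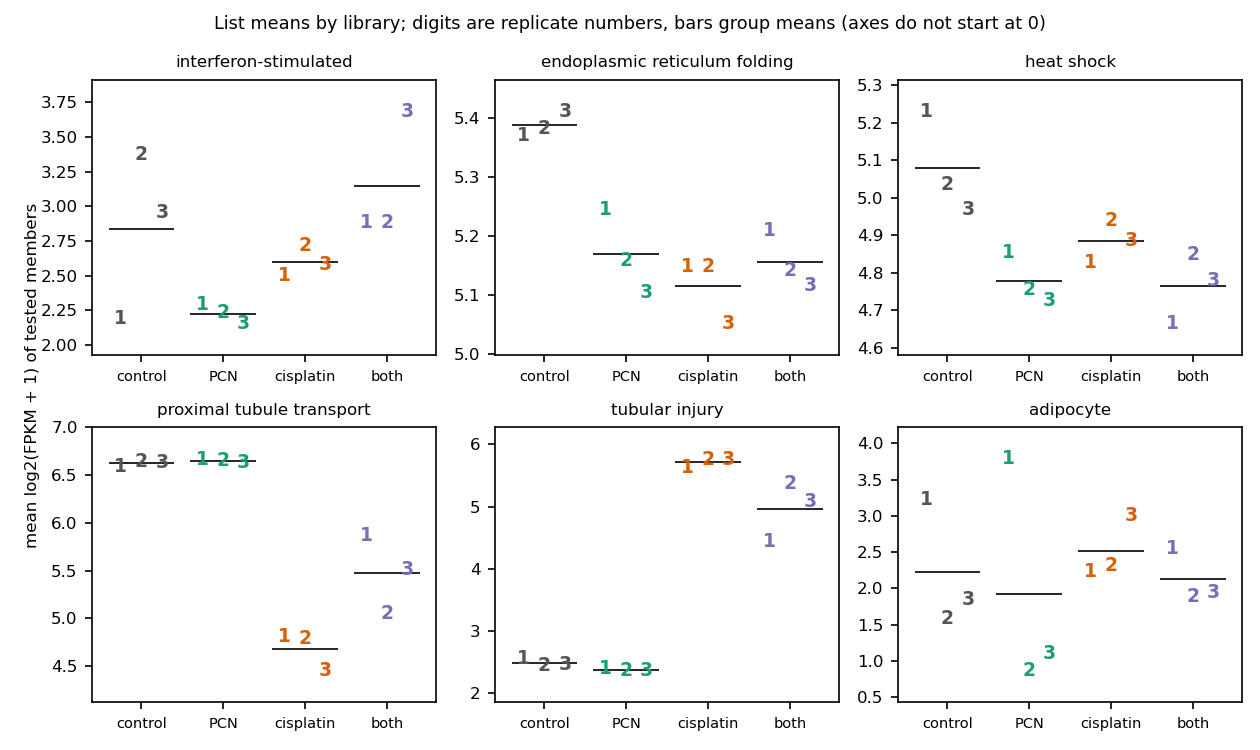
Mean log2(FPKM + 1) of the tested members of 6 lists in each library; digits are replicate numbers and bars group means, on axes that do not start at 0. Interferon-stimulated genes are high in control replicates 2 and 3 and in cisplatin+PCN replicate 3, folding genes are highest in the 3 control libraries, cisplatin+PCN replicate 1 lies nearest to the libraries without cisplatin for transport and injury genes, and adipocyte genes are highest in PCN replicate 1, control replicate 1 and cisplatin replicate 3.

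Of the 5784 genes for which cisplatin passed the test both without and with PCN, only 9 moved in opposite directions. Not all of the 9 are named here. They were singled out after their values were seen, and none passed the interaction test (adjusted p between 0.079 and 0.117, limma). Gas6, the ligand of the TAM receptors that clear dying cells, stood at 149, 170 and 148 FPKM in control, 149, 162 and 160 with PCN, 124, 146 and 111 with cisplatin and 260, 195 and 230 with both. Its cisplatin effect was -0.30 without PCN and 0.53 with it. Slc5a1, the glucose cotransporter SGLT1 of the late proximal tubule, stood at 16.6, 19.2 and 14.2 FPKM with cisplatin and 23.3, 25.8 and 26.1 with both, against 19.4 to 21.5 elsewhere. Hoxd8, a homeobox gene, stood at 31.3, 29.9 and 26.1 FPKM with cisplatin and 45.3, 40.3 and 40.6 with both, against 31.9 to 38.9 elsewhere. Frzb, a secreted WNT antagonist gene, went the other way, at 14.3, 10.1 and 11.1 FPKM with cisplatin and 5.94, 7.89 and 5.61 with both, against 8.61 to 9.80 elsewhere. Mt3, a metallothionein gene near the expression minimum, had cisplatin effects of 0.48 and -0.39, and Mocs3, Slfn3 and Gata3 had effects of -0.38 and 0.27, -0.37 and 0.31, and -0.25 and 0.26. For Gas6, Slc5a1, Hoxd8 and Frzb every cisplatin library lay on one side of the 6 libraries without cisplatin and every cisplatin+PCN library on the other. Much of this separation follows from choosing genes with opposite effects in these same libraries. The share of all tested genes that show it was not counted.

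Among metabolic genes, nuclear oxidative phosphorylation genes had small interactions in 1 direction: 44 of 45 above 0, 10 at an unadjusted p under 0.05, with a median of 0.20. Ndufs8, a subunit of complex I, stood at 85.7, 92.5 and 83.4 FPKM with cisplatin and 126, 104 and 118 with both, against 153 to 170 elsewhere (0.48 ± 0.11, adjusted p = 0.102). The 13 genes on mitochondrial DNA had a median of 0.02, with 7 above and 6 below 0, although cisplatin lowered them by a median of 1.06 without PCN and 0.99 with it. Cholesterol synthesis genes had a median of 0.19 (18 of 23 above 0): Cyp51, a sterol demethylase, had 0.74 ± 0.34, and Mvd, a decarboxylase of the pathway, 0.66 ± 0.16. The list for oxidation of fatty acids and PPAR alpha had a median of 0.04, and 18 of 35 lay above 0. Plin2 passed, and Pdk4, the kinase that shuts off pyruvate dehydrogenase, stood next to it at -1.37 ± 0.61, with 361, 186 and 636 FPKM with cisplatin and 257, 116 and 125 with both, so that the groups overlapped. Shmt2, the mitochondrial serine hydroxymethyltransferase, which like Amt handles glycine, stood at 25.3, 24.5 and 17.4 FPKM with cisplatin and 49.4, 34.1 and 42.3 with both, against 67.7 to 80.6 elsewhere (0.94 ± 0.22).

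The tested genes of the PXR axis showed no common interaction. Of 48 list members in the table, 28 were tested, and the rest were under the expression minimum. Of the 28 tested genes 14 lay above and 14 below 0, with a median of -0.02. Nr1i2 stood at 2.07, 2.61 and 2.80 FPKM in control, 2.50, 2.35 and 2.03 with PCN, 6.51, 4.83 and 4.47 with cisplatin and 4.89, 4.68 and 4.46 with both. Cisplatin raised it by 0.84 without and 0.79 with PCN, and the 95% interval of the interaction ran from -0.42 to 0.33. Cyp3a11, the best known PXR target in liver, was under the expression minimum, with 0.0552 ± 0.0529 FPKM in control and 0.123 ± 0.185 with PCN (SD, n = 3), and was not tested. Cyp2b10 and Cyp3a13, cytochrome P450 genes that PXR induces in liver or gut, rose with cisplatin and had interactions of -0.68 ± 0.27 and -0.48 ± 0.19 (adjusted p = 0.205 and 0.200). Sult1e1, an estrogen sulfotransferase gene, had no read in the 6 libraries without cisplatin, 115, 30 and 88 reads with cisplatin and 6, 14 and 21 with both. Abcb1a, the efflux pump gene, had -0.49 ± 0.26. Nrf2 targets had a median of -0.02, with 12 above and 14 below 0; Hmox1, the heme-degrading enzyme gene, stood at 89.3, 128 and 79.8 FPKM with cisplatin and 34.4, 64.3 and 61.3 with both (-0.51 ± 0.35). Platinum handling genes had a median of 0.06, and Mt1, a metallothionein gene, stood at 1525, 1353 and 1799 FPKM with cisplatin and 603, 1087 and 893 with both, against 64.7 to 84.4 elsewhere (-0.94 ± 0.27).

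**Figure D5:**
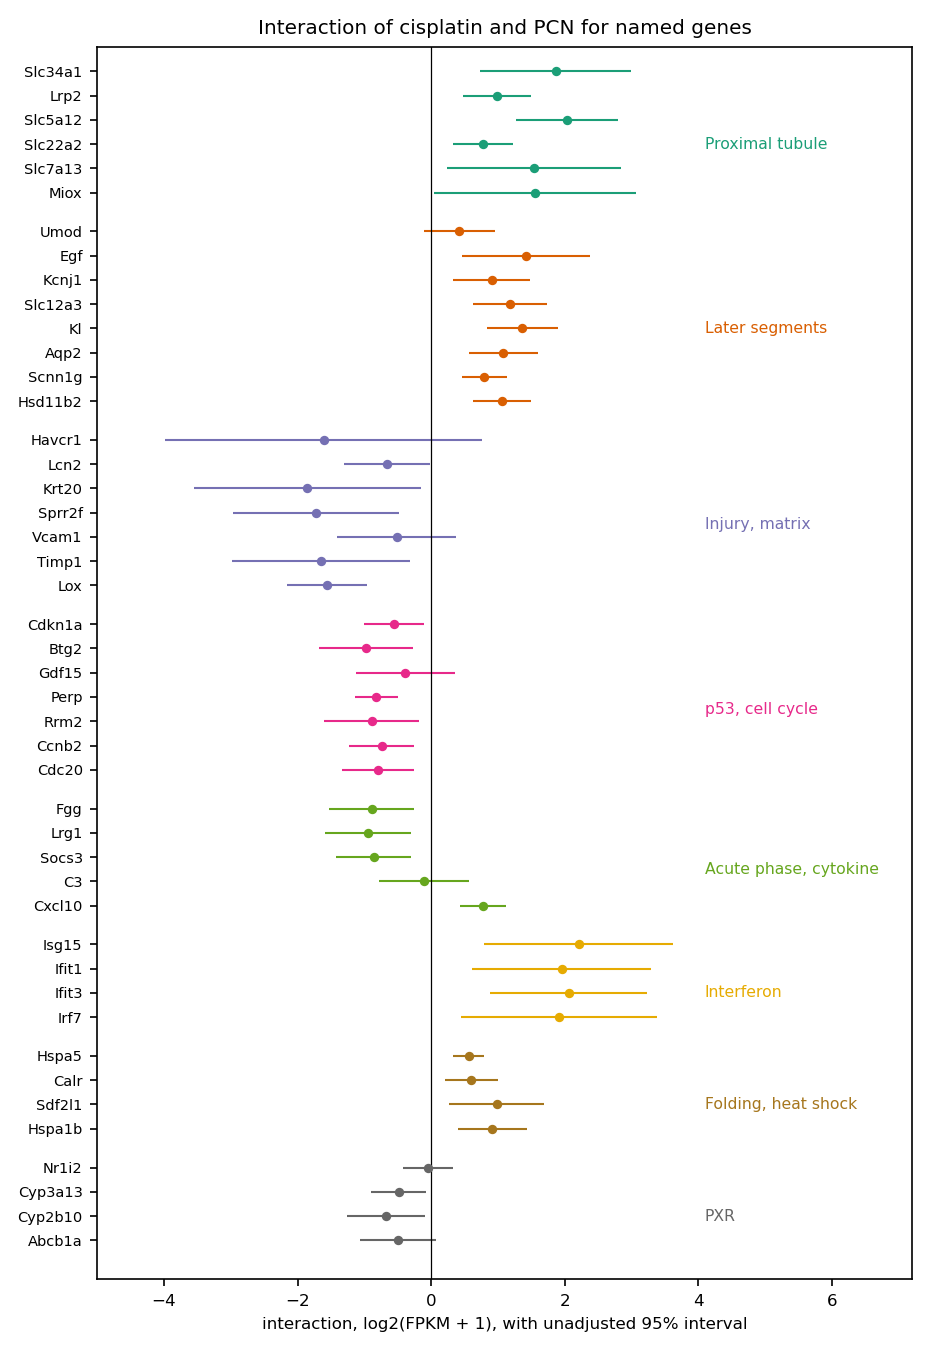
Interaction on the log2(FPKM + 1) scale for named genes, with the unadjusted 95% interval as bars, coloured by group. Tubular and interferon genes lie to the right of 0, injury, matrix, p53 and cell cycle genes to the left, and intervals of Havcr1 and Krt20 are wide, as are those of interferon genes.

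Genes of other kidney cell types had medians near 0. Podocyte genes had 0.12 (7 of 12 above 0), with Clic3 at 0.74 ± 0.19, and endothelial genes 0.04 (9 of 15 above 0). Macrophage and monocyte genes had -0.05 (4 of 10 above 0). The sign of these 3 medians changed under 1, 2 and 4 of 24 alternative analyses, whereas the medians of the transport, interferon, folding, injury, acute-phase, immediate early and matrix lists kept theirs in all 24. Adipocyte genes had -0.15 (6 of 9 below 0), a sign that changed in 6.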

How the data were processed

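Kidney mRNA of 12 libraries was measured by RNA sequencing. The authors deposited 1 table of FPKM values for 52636 genes. Per the submitters' processing notes the tools included HISAT2 2.0.5, featureCounts 1.5.0-p3, DESeq2 1.16.1 and edgeR 3.18.1, with no settings given. No source used here states strandedness: reads of overlapping or antisense genes cannot be separated. The notes name build mm8, but 52403 gene identifiers are in GENCODE M21 for GRCm38, and 49909 (95.2%) have the same coordinates there; coordinates are read as GRCm38.

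FPKM times gene length gave whole reads (100% within 0.001), which set the depths in the report. No pair of replicates agreed within sampling noise. The test was limma 3.58.1 (R 4.3.3, intensity trend) on log2(FPKM + 1), 4 group means, all 12 libraries, two-sided, for genes reaching FPKM 1 in 3 or more libraries, with p-values adjusted over 13540 genes. This scale understates changes of low genes, and a gene can pass the minimum through 1 group. Exact permutation of 3 against 3 libraries cannot go below 0.1 and was not used. The procedure was also run on simulated data with normal noise of equal spread in all groups. The real groups differed in spread, so that run does not vouch for the calls. The slope is the covariance of the effects divided by the variance of the effect without PCN less its mean squared standard error.

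The comparison, gene lists and naming rule were chosen with earlier results of these data known. The rule named up to 12 passing genes in each direction, up to 4 members of each of 40 lists with the largest absolute interaction, and a panel of injury, tubule and PXR genes; the text gives a part of these, and some genes are not reported here. Creld2, Ypel2, Tyms and the genes with opposite cisplatin effects (Mt3 aside) lie outside it. List members below the expression minimum were not tested: 839 of 844 listed genes were in the table. Promoters are from RefSeq (GRCm38.p6). Alternatives covered the pseudocount, filter, scaling, weights, replicate block, limma-voom and leaving out libraries.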

Additional observations from a re-analysis of the deposited data

Results flagged for a closer look

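For 15 genes the cisplatin effect differed between kidneys with and without PCN by the interaction term of limma at an adjusted p under 0.05. In all 3 libraries given both drugs, these genes lay on the same side of the 3 libraries given cisplatin alone. The test that chose the genes used these same libraries, so the separation adds no support. Its share among all tested genes was not counted. The interaction on the log2(FPKM + 1) scale was -1.63 for Fgb, -1.39 for Pi15, -1.32 for Plin2, -1.10 for Eif4ebp1 and -1.07 for Cldn3. It was 1.78 for Nat8f6, 1.77 for Tmem52b, 1.72 for Nat8f1, 1.33 for Arhgef19, 1.23 for Slc13a2, 1.13 for Slc4a1, 1.07 for Rhcg, 0.93 for Acot11, 0.89 for Amt and 0.73 for Kcnj10. Leaving out any 1 of the 12 libraries, 9 of them passed every time: Plin2, Nat8f1, Nat8f6, Cldn3, Fgb, Eif4ebp1, Slc13a2, Acot11 and Pi15. Kcnj10 passed 9 times, Amt 5, Tmem52b, Rhcg and Slc4a1 3 each and Arhgef19 2.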

How the results depend on the processing

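Genes above and below 0 in the interaction numbered 14 and 5 with a pseudocount of 0.1, 17 and 13 among genes with a mean FPKM of at least 5, 61 and 7 with limma-voom on recovered reads (14 of the 15 genes, Fgb lost), 15 and 8 with weights per group, and 2154 and 2161 with weights per library, whose estimation stopped before converging and gave 1 library, cisplatin+PCN replicate 3, a weight of 20.1 against 0.229 to 1.58. Without the control and PCN libraries numbered 1, an alternative chosen after seeing the data, they numbered 0 and 0. Leaving out 1 library gave 4 to 614 above and 5 to 452 below 0. The labels do not say that equal replicate numbers mark a pairing, and 4 of 18 same-numbered pairs deviated together with a correlation over 0.1 (range -0.281 to 0.366), although 8 of 12 libraries correlated best with their own number, a hint from the data. A replicate block gave 8 above and 6 below 0, and 11 of the 15 genes were among them. The cause of these differences was not tested. Cisplatin without PCN gave 3900 to 4440 higher and 3884 to 4454 lower genes when 1 library was left out, and 2625 and 2572 at a mean FPKM of at least 5. Cisplatin with PCN gave 2626 to 3427 and 2610 to 3366, and 2041 and 1990 at that filter, with 4800 higher under weights per library. PCN without cisplatin gave 0 and 0 whichever library was left out, and 1 and 1 with no filter. PCN with cisplatin gave 294 to 1706 and 286 to 1684 when 1 library was left out, 448 and 560 with no filter, 3301 and 3561 with weights per library, 369 and 310 with weights per group, 559 and 557 without the libraries numbered 1, and 0 and 1 when only the groups compared were fitted. The slope stayed between 0.69 and 0.78. Of the genes with a recomputed interaction, only C3 and Nr1i2 changed sign. C3 ranged from -0.26 to 0.12 when 1 library was left out, and was 0.206 with weights per library and 0.032 without the libraries numbered 1. Nr1i2 ranged from -0.14 to 0.088 when 1 library was left out, and was 0.086 without the libraries numbered 1. At an FPKM of 1, 18.7 to 27.2 reads per kilobase limit the precision.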
